A study of Mus musculus with 59 samples.

Results

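The Hox genes are the 39 genes of the mouse Hoxa, Hoxb, Hoxc and Hoxd clusters, chosen by symbol alone (a cluster letter followed by a position number) from the 21706 genes of the tables. Cluster a has 11 members, cluster b 10, and clusters c and d 9 each. The study measured RNA in the uterus of mice early in pregnancy, in 59 libraries from 29 females. All were about 2 to 6 months old and had mated with wild-type males as virgins.

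Esr1 encodes oestrogen receptor alpha. Control females were Esr1f/-: 1 allele of Esr1 was null and the other was flanked by loxP sites, so that controls also had a single working copy. Knockout females were epiERa-/- (Esr1f/-Wnt7aCre/+), in which Cre under the Wnt7a locus acts in uterine epithelium and Esr1 was to remain in stroma and muscle. Uteri were taken 0.5 day post coitum (D0.5), the day of the vaginal plug, or at day 3.5 (D3.5), before implantation. Luminal epithelium (LE) was scraped off after dispase digestion, whole uterus (U) was an undigested piece of a horn, and digested uterus (DU) was a piece taken after digestion and before scraping. LE came from 9 controls and 7 knockouts on D0.5, and from 4 controls and 6 knockouts on D3.5. The same counts were 6, 4, 5 and 5 in U and 4, 3, 3 and 3 in DU. Libraries of 1 number came from the same mouse, and D0.5 and D3.5 mice were different animals.

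Hox proteins are homeodomain transcription factors that bind DNA together with partners of the PBX, MEIS and PKNOX families. The genes lie in clusters in the order in which they are switched on along the body axis, low position numbers toward the head and high ones toward the tail, and Polycomb and trithorax complexes keep them off or on. Along the Müllerian duct, the embryonic tube that becomes the female tract, Hoxa9 marks the future oviduct, Hoxa10 and Hoxa11 the uterus and Hoxa13 the cervix and vagina. Hoxa10 and Hoxa11 are needed in the adult uterus for implantation and for the response of the stroma to progesterone.

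The windows just upstream of 4 members are shown: Hoxa10, Hoxa11 and Hoxd11, which rose in whole uterus by D3.5, and Hoxb8, which stood higher in epithelium and, like Hoxd11, holds a motif searched here. Each is the 250 bases upstream of a RefSeq start on build GRCm38.p6, read 5′ to 3′ on the strand of the gene. Capitals mark a HOX-PBX motif, TGATNNAT on either strand.
Hoxa10: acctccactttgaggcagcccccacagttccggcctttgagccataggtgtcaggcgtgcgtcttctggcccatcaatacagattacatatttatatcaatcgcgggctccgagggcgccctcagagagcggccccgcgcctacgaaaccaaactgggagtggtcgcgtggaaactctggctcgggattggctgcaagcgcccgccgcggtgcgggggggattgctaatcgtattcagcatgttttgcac
Hoxa11: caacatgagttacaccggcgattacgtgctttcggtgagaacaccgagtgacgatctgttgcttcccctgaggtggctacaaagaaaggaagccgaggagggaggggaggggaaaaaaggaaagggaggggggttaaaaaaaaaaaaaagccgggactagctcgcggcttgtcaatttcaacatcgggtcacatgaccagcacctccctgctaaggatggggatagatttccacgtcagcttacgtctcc
Hoxd11: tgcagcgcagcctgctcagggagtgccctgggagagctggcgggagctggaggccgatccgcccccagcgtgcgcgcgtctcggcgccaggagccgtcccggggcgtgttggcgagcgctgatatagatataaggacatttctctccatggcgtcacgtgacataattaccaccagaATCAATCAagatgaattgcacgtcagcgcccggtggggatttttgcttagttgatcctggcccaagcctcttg
Hoxb8: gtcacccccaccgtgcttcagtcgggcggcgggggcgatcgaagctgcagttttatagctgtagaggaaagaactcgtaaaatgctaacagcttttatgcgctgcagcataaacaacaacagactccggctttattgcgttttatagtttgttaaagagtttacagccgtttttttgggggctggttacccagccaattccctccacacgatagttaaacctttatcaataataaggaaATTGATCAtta
The Hoxa10 window is chr6:52234940-52235189 and the Hoxa11 window chr6:52245811-52246060, both on the minus strand. The Hoxd11 window is chr2:74682073-74682322 and the Hoxb8 window chr11:96281655-96281904, both on the plus strand. Windows were found for 22 of the 39 members. The HOX-PBX motif was in 4 of these (18.2%), those of Hoxa2, Hoxb1, Hoxb8 and Hoxd11, and in 7.68% of 32851 windows of that length. The palindromic oestrogen response element GGTCANNNTGACC was in 0 of the 22 and in 0.0639% of all windows, and the progesterone response element GNACANNNTGTNC in 0 of 22 and 0.387%. The median window of a Hox gene held 13 CpG dinucleotides, against 6 over all windows. These letters are a description of the windows and say nothing of binding.

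Total counts per library were 13468404 to 80312369 in LE, 11305131 to 108002313 in U and 14053800 to 46214396 in DU. The tissue labels were met by their markers: all 10 epithelial markers were higher in LE than in U, and all 10 stromal fibroblast and all 7 smooth muscle markers were lower. LE was not epithelium alone. The mesothelium markers Upk3b, Msln and Lrrn4 were also higher in LE than in U (log2 fold changes 2.36, 2.77 and 2.71), while Wt1 was lower (−1.73). Esr1 stood at 5.92 to 12.8 TPM (the share of all transcripts, scaled for gene length) in knockout and 21.5 to 50.8 TPM in control LE at D0.5, and at 13.1 to 20.1 against 15.9 to 44.5 TPM at D3.5. The U library labelled knockout 33 held 60.5 TPM of Esr1, where the 5 controls held 19.1 to 50.4. Among the U libraries it had the highest summed stromal markers (8075 TPM) and the lowest summed epithelial markers (508 TPM). Esr1 was to remain in stroma and muscle, so the Esr1 level of whole uterus cannot decide the label of this library. Among LE libraries, control 2 at D0.5 and control 14 at D3.5 carried the most stromal RNA of their groups, with summed stromal marker levels of 2514 and 2256 TPM against 211 to 1196 and 765 to 1090 TPM in the other controls. In bulk RNA, fewer cells of a type and less RNA per cell cannot be told apart.

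The Hox RNA of LE came almost wholly from cluster b. In LE, cluster b made up 92.5% of the summed Hox TPM on average (77.9 to 98.7% over 26 libraries), cluster a 2.79%, cluster d 2.43% and cluster c 2.24%. In U the shares depended on the day. In control U at D0.5 cluster b was largest at 48.2% (39.5 to 60.5% over 6 libraries), with 24.6% for cluster a and 24.7% for cluster d. At D3.5 cluster a was largest at 47.5%, with 33% for cluster d and 17.5% for cluster b (13.2 to 23.5% over 5 libraries). Knockout U held 40.9 and 17.8% of cluster b on the 2 days, and control DU 46 and 15.7%. The summed level was of the same order in each tissue: 592 ± 205 TPM in LE (SD, n = 26), 720 ± 215 in U (n = 20) and 775 ± 265 in DU (n = 13). Cluster b took a larger share in each LE library than in any U library.

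In LE the first 7 places were all cluster b: Hoxb6 (180 TPM on average over the libraries), Hoxb8 (158), Hoxb7 (58.3), Hoxb3 (45.8), Hoxb4 (37.2), Hoxb2 (35.7) and Hoxb5 (24.5). Hoxc6 followed at 7.66 TPM, and other members were below 10 TPM on this average, though Hoxc6 and, in knockout, Hoxb9 passed 10 TPM in the mean of a D3.5 group. In control U the order at D0.5 began with Hoxb6 (78.7 ± 11.4 TPM), Hoxb8 (67.5 ± 9.76), Hoxa10 (60.3 ± 27.7), Hoxa11 (38.7 ± 12.6) and Hoxd10 (35.8 ± 9.73; SD, n = 6). At D3.5 it began with Hoxa10 (190 ± 73 TPM), Hoxa11 (169 ± 15.6), Hoxd10 (72 ± 11.4), Hoxd11 (71 ± 14.7) and Hoxd9 (61.1 ± 6.72; n = 5), and Hoxb6 followed at 44.8 ± 5.05. Neighbours in these orders often did not differ beyond their spread: in LE at D0.5, Hoxb6 and Hoxb8 stood at 142 ± 25.8 and 116 ± 22 TPM in control (n = 9). Averaged over all libraries of a tissue, members at 10 TPM or more numbered 7 in LE and 15 each in U and DU.

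**Figure D1:**
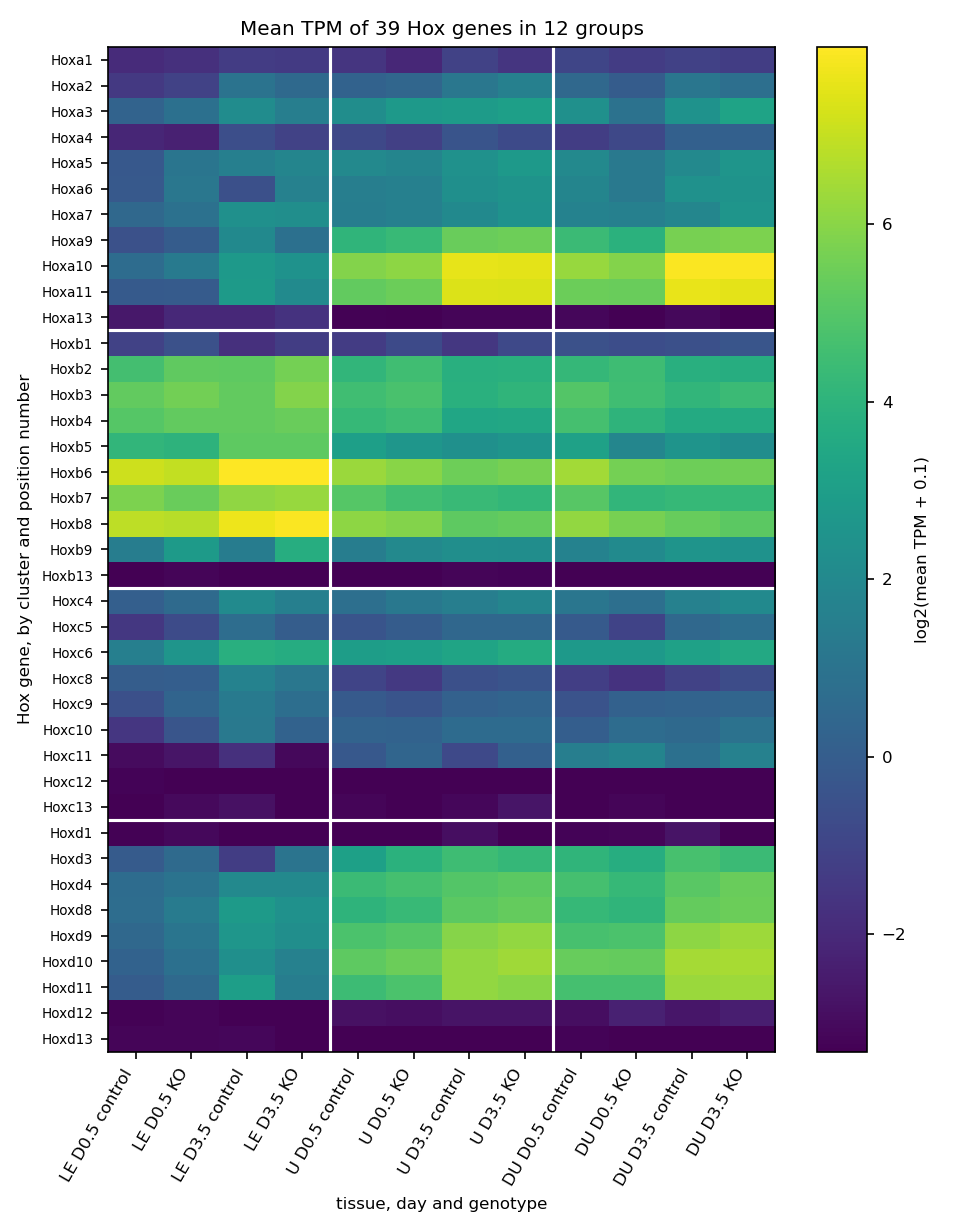
Mean level of each of the 39 Hox genes (rows, by cluster and position number) in each of the 12 groups of tissue, day and genotype (columns); colour gives log2 of the mean TPM plus 0.1, and white lines part the clusters and the tissues. The bright band lies in cluster b from Hoxb2 to Hoxb8 in LE. In U and DU, Hoxa9 to Hoxa11 and Hoxd8 to Hoxd11 are bright, more so at D3.5. Cluster b is bright there too, with Hoxb6 at 60.3 and Hoxb8 at 51.2 TPM on average in U.

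In each tissue 7 members were nearly silent, at a mean under 0.1 TPM. In U these were Hoxa13, Hoxb13, Hoxc12, Hoxc13, Hoxd1, Hoxd12 and Hoxd13, mostly genes of the tail end of the clusters. The same 7 were lowest in DU, and in LE Hoxc11 took the place of Hoxa13. Hoxc12 was listed at 0 in all 20 U and all 13 DU libraries and held 4 counts summed over the 26 LE libraries. Hoxa13, which marks cervix and vagina, was listed at 0 in 15 of 20 U libraries and 10 of 13 DU libraries, with 5 and 3 counts in all. In LE it was above 0 in all but 7 of 26 libraries, at 0.134 ± 0.165 TPM and 150 counts in all, and only 4 of these libraries reached 10 counts. The horns that gave LE were still joined by the cervix. The 5 markers of cervix, vagina or oviduct were all called higher in LE than in U, and their part in the Hoxa13 level was not tested.

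The first comparison asked which Hox genes stood higher in LE and which in whole uterus. Genes passed the test at an adjusted p under 0.05 (edgeR quasi-likelihood, Benjamini-Hochberg over all tested genes), and fold changes are on the log2 scale of normalised counts. Of the 32 members tested in LE against U, 9 were higher in LE, where 31.0% of all 16665 genes were, and 14 were lower, where 34.7% of all genes were. The direction followed the cluster: of the members tested, 8 of 9 in cluster b were higher and 0 lower, while 7 of 10 in cluster a and all 6 in cluster d were lower and 0 higher. In cluster c, 1 of 7 was higher and 1 lower. With the mouse as a block, all 23 were called again and Hoxa4 was added.

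Hoxb6, a gene of the trunk mesoderm in the embryo, stood at 95.4, 146 and 177 TPM (lowest, median, highest) in control LE at D0.5 and at 69.3, 77.4 and 100 TPM in U. At D3.5 the 4 control LE libraries held 244, 205, 316 and 254 TPM and the 5 U libraries 48.3, 43.2, 38.3, 43.1 and 51.3 TPM. The tissues overlapped at D0.5 by little and stood far apart at D3.5. Over all groups Hoxb6 was 1.90 ± 0.09 (log2, SE) higher in LE, with an adjusted p of 2.13e-21. Hoxb8, known for its role in myeloid progenitors and microglia, was 1.97 ± 0.11 higher (2.82e-19), Hoxb3 1.48 ± 0.08 (1.27e-19) and Hoxb4, known from blood stem cells, 1.61 ± 0.11 (6.6e-17). Hoxb2, Hoxb5, Hoxb7 and Hoxb9 were the other cluster b members that were higher. Hoxb1 was tested and did not pass, and Hoxb13 was too low to test.

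Hoxa9 to Hoxa11 and the cluster d genes went the other way. Hoxa10 stood at 0.146, 1.29 and 6.24 TPM in control LE at D0.5 and at 17.6, 67.9 and 92.6 TPM in U. At D3.5 the 4 control LE libraries held 3.02, 12.1, 6.67 and 4.56 TPM and the 5 U libraries 236, 257, 226, 81.8 and 150 TPM. No LE library reached the level of any U library of its day. Over all groups Hoxa10 was −4.78 ± 0.34 in LE against U (adjusted p = 3.47e-16) and Hoxa11 −5.05 ± 0.30 (1.3e-18). Hoxd10, a gene of limb and lower spinal cord, was −4.35 ± 0.26 (1.77e-18), Hoxa9 −4.14 ± 0.27 (2.93e-17) and Hoxd9 −3.66 ± 0.26 (2.71e-16).

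Cluster c was low in both tissues and split within itself. Hoxc6, its most abundant member, did not differ by the test between LE (7.66 TPM on average) and U (9.56 TPM). Hoxc8, named after its values were seen, was the only cluster c member higher in LE (2.07 ± 0.35, adjusted p = 1.33e-06), and Hoxc11, likewise, the only one lower (−3.88 ± 0.48, 2.31e-09). In each LE group the library with the most Hoxc8 also held the highest summed stromal and mesothelium markers. These were control 2 (3.03 TPM of Hoxc8) and knockout 23 (2.08) at D0.5. At D3.5 they were control 14 (7.22) and knockout 31 (3.38). The part of those cells in the Hoxc8 level was not tested. Hoxc11 was too low to test in LE alone.

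**Figure D2:**
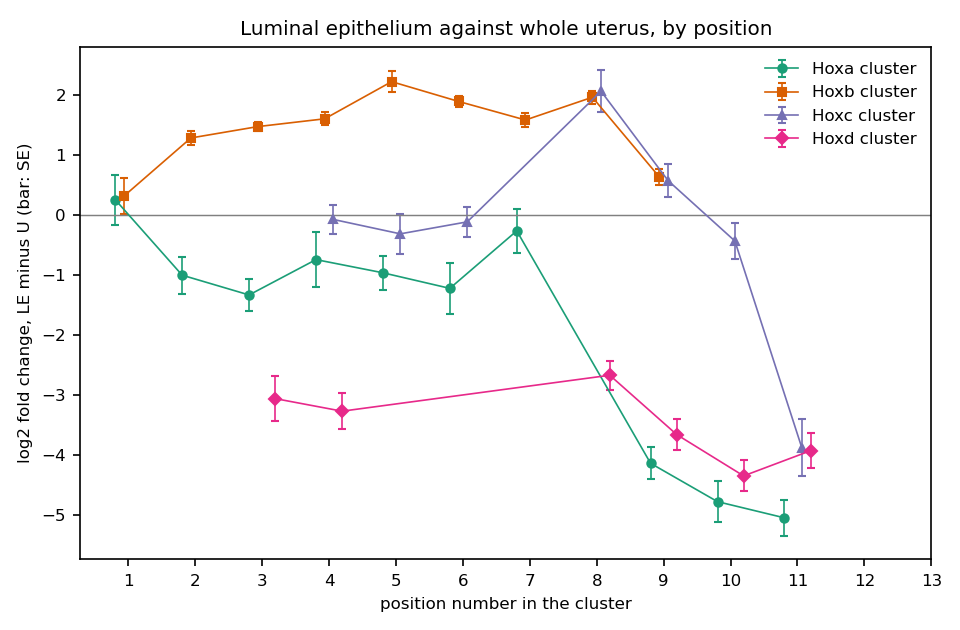
Difference between LE and U of each of the 32 tested Hox genes (log2 fold change, LE minus U, with its SE as the bar) against the position number in the cluster; colours and symbols give the cluster, and points above the line were higher in LE. Cluster b lies above 0 at each position tested, cluster d below it, and clusters a and c fall to −5.05 (Hoxa11) and −3.88 (Hoxc11) at position 11.

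Stromal RNA was present in every LE library, so the low level of the cluster a and d members in LE was set beside it. For Hoxa9 to Hoxa11 and Hoxd3 to Hoxd11 (9 genes, grouped after their values were seen), the mean LE level was at the median 4.11% of that in U at D0.5 in control, 4.94% in knockout, 9.68% at D3.5 in control and 4.18% in knockout. For the 10 stromal fibroblast markers the same medians were 11.6, 11.6, 10.5 and 7.08%, and single markers ranged from 0.468% (Pdgfrb) to 59.8% (Dcn) over the 4 groups. For the 7 smooth muscle markers they were 0.219 to 0.617%. For the 4 mesothelium markers they were 311, 558, 640 and 518%, in the same order of groups. The share of the Hox level in LE that came with stromal or mesothelial RNA was not tested.

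Against digested uterus the picture was nearly the same. Of 33 members tested, 10 were higher in LE (33.9% of all genes) and 12 lower (32.8%). Hoxb6 was 2.13 ± 0.11 higher and Hoxb8 2.23 ± 0.12 (adjusted p = 1.88e-18 and 4.31e-18), and Hoxa11 was −4.96 ± 0.32 (1.11e-15) and Hoxa10 −4.83 ± 0.36 (4.26e-14). Hoxa13 was among the 10, at 4.73 ± 0.87 (1.77e-05), from mean levels of 0.28 and 0.00869 CPM (counts scaled to library size), and this call was lost with the mouse as a block. The other 21 were called again with the block.

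In the whole uterus the Hox genes that rose between D0.5 and D3.5 were mostly of clusters a and d, and those that fell were of cluster b. In control U, 9 of 32 tested members rose, where 16.2% of all genes did, and 5 fell, where 18.0% did. Cluster a had 3 members that rose and 0 that fell, cluster d 5 and 0, cluster b 1 and 5, and cluster c 0 and 0. In knockout U, 8 rose (10.9% of all genes) and 4 fell (14.6%). Control DU had 8 up and 7 down (15.9 and 18.5%), and knockout DU 10 up and 3 down (12.9 and 17.3%).

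Hoxa11, needed for uterine stroma and glands, rose most of the members in control U. It stood at 24.4, 34.5 and 60 TPM (lowest, median, highest of 6) at D0.5, and at 169, 190, 169, 146 and 171 TPM in the 5 libraries at D3.5. In knockout U the 4 libraries at D0.5 held 45.7, 35.9, 51.6 and 41.1 TPM and the 5 at D3.5 held 178, 130, 160, 173 and 189 TPM, where 130 is the library labelled knockout 33. The days did not overlap in either genotype. The change was 1.96 ± 0.21 in control (adjusted p = 4.56e-07) and 1.79 ± 0.24 in knockout (1.27e-05). In DU it was 2.00 ± 0.21 and 1.91 ± 0.23.

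Hoxa10 rose by 1.50 ± 0.24 in control U (adjusted p = 4.88e-05) and by 1.32 ± 0.27 in knockout U (0.000946). Its libraries differed more from each other in U than in DU at D3.5. At D3.5 control U held 81.8 to 257 TPM (SD 73), while the 3 control DU libraries held 234, 242 and 253 TPM (SD 9.29) and the 3 knockout DU libraries 239, 247 and 255 TPM (SD 8.12). Mouse 14 gave the lowest U value, 81.8 TPM, and 242 TPM in its digested piece. Mouse 16 gave 150 and 253 TPM, knockout mouse 34 gave 145 and 247, and knockout mouse 35 gave 140 and 255. Mice 11 and 32 gave near equal values in both pieces, 236 and 234 TPM and 253 and 239 TPM. In CPM, the scale of the tests, the gaps were smaller: mouse 14 held 187 and 322 CPM, mouse 16 held 236 and 326, mouse 34 held 260 and 324, and mouse 35 held 233 and 330. At D0.5 the lowest U value was 17.6 TPM in mouse 8, whose digested piece held 69.2 TPM. In DU the change with day was 1.47 ± 0.15 in control (8.25e-06) and 1.83 ± 0.16 in knockout (4.92e-06).

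The cluster d genes rose beside them. Hoxd11, expressed in limb and kidney in the embryo, stood at 17.6, 22.4 and 24.1 TPM in control U at D0.5 and at 83.5, 74.1, 85.8, 56.7 and 54.6 TPM at D3.5, with no overlap and a change of 1.53 ± 0.18 (adjusted p = 2.02e-06). Hoxd10 rose by 0.85 ± 0.13 (3.22e-05) and Hoxd8 by 0.96 ± 0.15 (3.11e-05). Hoxa9 rose by 1.21 ± 0.20 (7.92e-05), from 10 to 22.4 TPM at D0.5 to 19.8 to 54.8 TPM at D3.5, which overlap in 1 library. Of the stromal fibroblast markers in the same libraries, 4 of 10 rose and 2 fell in control U, with summed levels of 5283 ± 912 TPM at D0.5 and 6706 ± 892 at D3.5. All 5 endothelial markers rose in control U, with summed levels of 89.4 to 141 TPM at D0.5 and 181 to 301 TPM at D3.5, which do not overlap. All 4 red cell markers rose there too, and all 4 neutrophil markers fell. The part of these cells in the Hox levels was not tested.

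Hoxb6 fell by 0.97 ± 0.16 on the log2 scale in control U (adjusted p = 0.000103), from 69.3 to 100 TPM over the 6 libraries at D0.5 to 38.3 to 51.3 TPM over the 5 at D3.5. Hoxb4 fell by 1.08 ± 0.20 (0.000272), Hoxb8 by 1.06 ± 0.24 (0.00144) and Hoxb3 by 0.79 ± 0.14 (0.000231). Hoxb7 was the fifth that fell. Hoxb9 was the exception in the cluster and rose by 0.64 ± 0.16 (0.00481). The epithelial markers moved with these genes. All 10 fell in control U, and their summed level went from 2946 to 5573 TPM at D0.5 to 509 to 990 TPM at D3.5. The part of this fall in the level of the cluster b genes in U was not tested.

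In knockout U, Hoxb4 fell by 1.17 ± 0.22 (adjusted p = 0.000408), Hoxb3 by 0.78 ± 0.16 (0.000872), Hoxb8 by 0.76 ± 0.25 (0.0335) and Hoxb2 by 0.79 ± 0.27 (0.0372). Hoxb6 was not called there, at 81.6, 55.5, 69.1 and 45.1 TPM at D0.5 and 54.1, 59.7, 46.6, 46.5 and 51.6 TPM at D3.5, which overlap. Without the library labelled knockout 33, 7 members rose and 2 fell, and Hoxa5, Hoxb2 and Hoxb8 were no longer called. In control DU, Hoxb6 fell by 1.13 ± 0.15 (6.33e-05), from 93.1, 99.6, 84.3 and 67.4 TPM to 44.8, 45.8 and 45.3 TPM, and the days did not overlap.

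**Figure D3:**
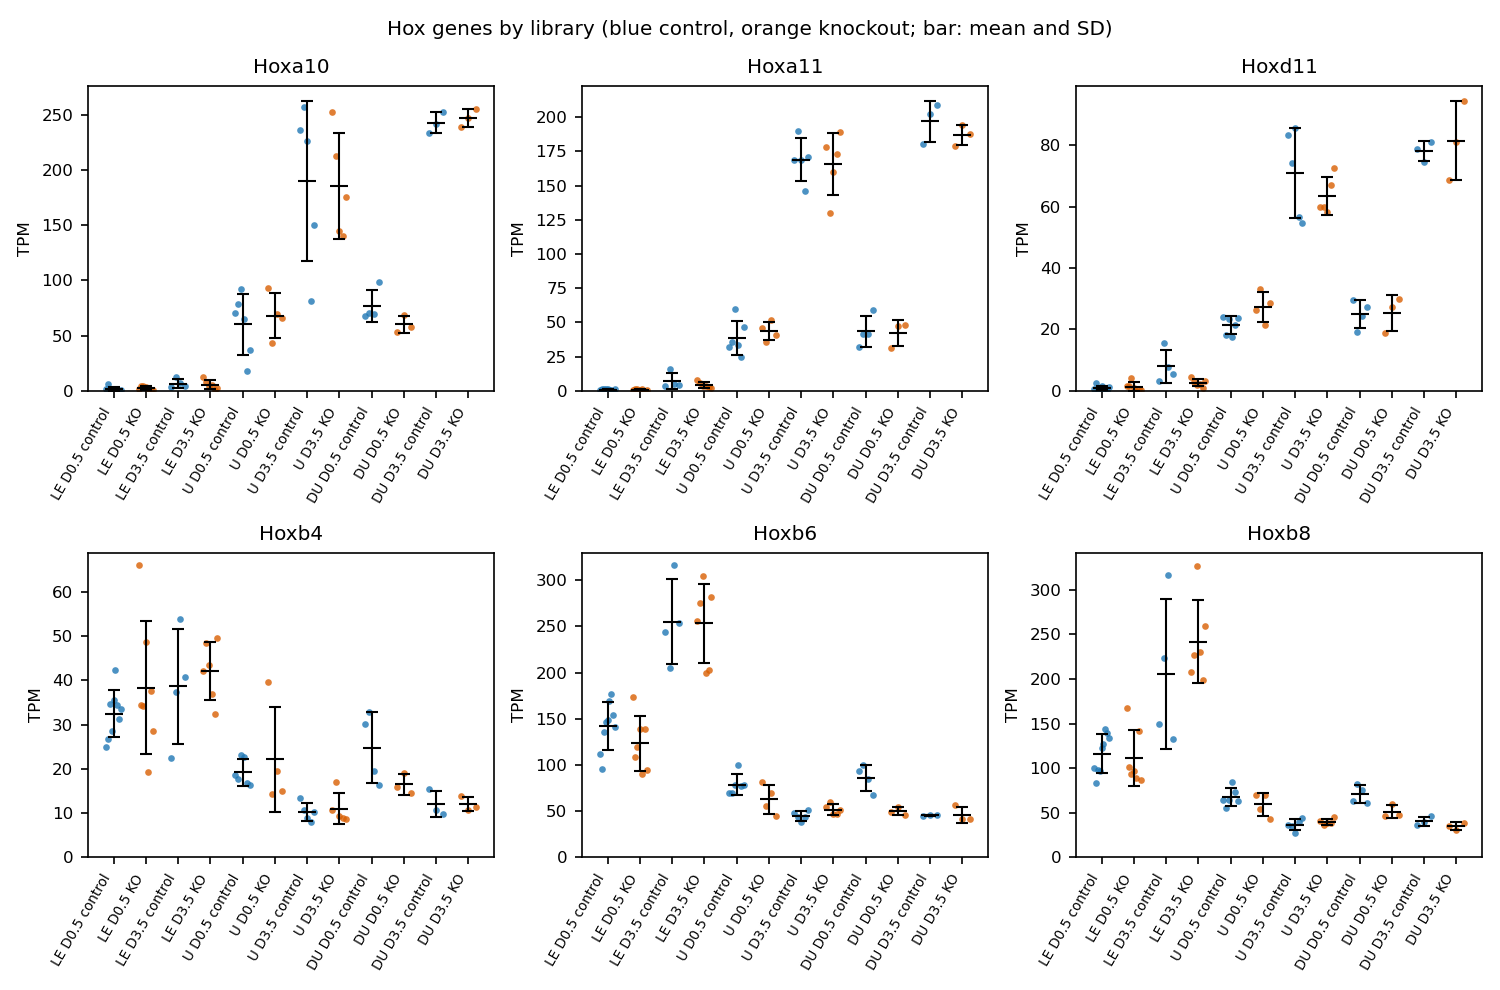
Level in TPM (linear axes from 0) of 6 Hox genes in each library of the 12 groups; points are libraries, blue for control and orange for knockout, and bars give the mean and SD. Hoxa10, Hoxa11 and Hoxd11 stand low in LE and rise from D0.5 to D3.5 in U and DU, whereas Hoxb4, Hoxb6 and Hoxb8 stand highest in LE and are lower at D3.5 than at D0.5 in control U and DU.

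In the epithelium itself no tested Hox gene was called lower at D3.5 than at D0.5. Hoxb1 changed by −1.40 ± 0.58 in knockout LE and did not pass (adjusted p = 0.0557). In control LE, 19 of 31 tested members rose (21.2% of all genes) and 0 fell (22.8% of all genes). Cluster a gave 6 of 10, cluster b 3 of 9, cluster c 6 of 6 and cluster d 4 of 6. Without control library 14 at D3.5, which carried the most stromal RNA of its group, 12 were called. The 7 lost were Hoxa3, Hoxa5, Hoxa10, Hoxc4, Hoxc5, Hoxc8 and Hoxc9. In knockout LE, 4 of 31 rose (21.4% of all genes) and 0 fell (20.2%): Hoxa11, Hoxb5, Hoxb6 and Hoxb8.

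Of the 7 abundant cluster b genes, Hoxb5, Hoxb6 and Hoxb8 rose in both genotypes, and Hoxb2, Hoxb3, Hoxb4 and Hoxb7 were called in neither. Hoxb6 went from 95.4, 146 and 177 TPM to 244, 205, 316 and 254 TPM in control LE and from 89.8, 119 and 174 TPM to 200, 266 and 304 TPM (lowest, median, highest of 6) in knockout LE. The days did not overlap in TPM in either genotype, though they did in normalised counts. The change was 0.72 ± 0.17 in control (adjusted p = 0.00148) and 0.54 ± 0.17 in knockout (0.0104). Hoxb8 rose by 0.66 ± 0.19 (0.0064) in control and 0.67 ± 0.18 (0.0044) in knockout, and Hoxb5 by 0.99 ± 0.28 (0.00608) and 0.75 ± 0.27 (0.0284). The Hoxb5 call in knockout was lost without knockout libraries 35, 36 and 37 (0.0553).

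The other members that rose in control LE were low. Hoxc10, a hindlimb and lumbar gene, changed by 3.06 ± 0.67 (adjusted p = 0.000496), from 0.0274 to 0.945 TPM over 9 libraries to 0.736, 6.32, 0.944 and 1.01 TPM. Hoxa11 changed by 2.95 ± 0.67 (0.00076), Hoxd11 by 3.00 ± 0.69 (0.000829) and Hoxa9 by 2.68 ± 0.59 (0.000557). For Hoxa11 the D0.5 libraries held 0 to 1.61 TPM and the D3.5 libraries 3.67, 15.7, 4.77 and 4.45 TPM, with no overlap. In knockout LE, Hoxa11 stood at 0 to 1.45 TPM and 1.86 to 7.81 TPM, a change of 1.90 ± 0.67 (0.0235). Of the 10 stromal markers, 2 rose in control LE and 0 in knockout LE. The summed mesothelium markers stood at 36.5 to 418 TPM in control LE at D0.5 and 144 to 681 TPM at D3.5, highest in control library 14. In control LE 3 of 5 endothelial and all 4 red cell markers also rose, from a mean summed level of 6.25 to 24.3 TPM and of 163 to 2937 TPM. Of the epithelial markers 6 of 10 fell, with sums of 6851 to 11374 TPM at D0.5 and 4324 to 5692 TPM at D3.5, which do not overlap. The part of these shifts in the Hox levels was not tested.

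The contrast between tissues was then tested directly, as a difference of 2 day effects in 1 fit of LE and U, chosen after the data were seen. In control mice 10 of 32 members had a higher day effect in LE than in U (14.8% of all genes) and 0 a lower one (8.46%): Hoxb2 to Hoxb8, Hoxc6, Hoxc10 and Hoxc11. Of these, Hoxc11 was too low to test in LE alone. Control LE held 0 to 0.116 TPM of Hoxc11 at D0.5 and 0.0626, 0.605, 0.111 and 0 TPM at D3.5, where 0.605 is control library 14. The difference was 1.80 ± 0.24 for Hoxb6 (adjusted p = 3.62e-07), 1.84 ± 0.29 for Hoxb8 (7.61e-06), 1.28 ± 0.29 for Hoxb4 (0.000861) and 1.98 ± 0.45 for Hoxb5 (0.00101). Over all genes the median difference was 0.13. In knockout mice 5 were higher (8.48%) and 0 lower (4.22%), with 1.50 ± 0.30 for Hoxb8 (0.000578) and 1.05 ± 0.25 for Hoxb6 (0.00295) beside a median of 0.11. The other 3 were Hoxb3, Hoxb4 and Hoxb7. The 10 epithelial markers also stood further above U at D3.5. Their LE level was at the median 242% of that in U at D0.5 and 748% at D3.5 in control, and 268 and 821% in knockout. For Hoxb6 the same values were 181 and 568% in control and 197 and 490% in knockout. The part of the fall of epithelial RNA in U in these differences was not tested. Both tissues of 17 mice enter this fit without a block. Without LE control 2, 15 members were called in control. Without LE control 14, 7 were, and the same number without U control 11, 12, 13 or 16. In knockout mice 2 or 3 members were called when any 1 of several libraries was left out, among them LE knockout 32 (2) and the library labelled knockout 33 (3).

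**Figure D4:**
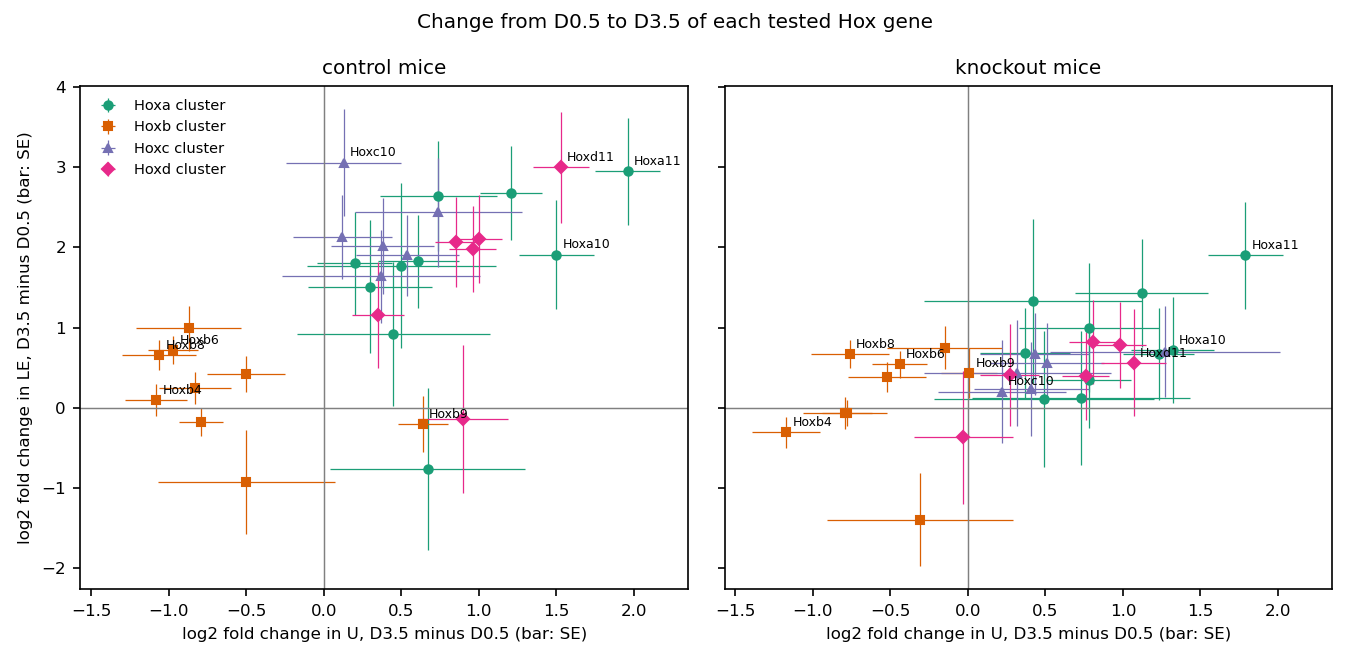
Change from D0.5 to D3.5 of each tested Hox gene in LE (vertical axis) against that in U (horizontal axis), both as log2 fold change with the SE as bars, in control mice (left) and knockout mice (right); colours and symbols give the cluster. Cluster b genes other than Hoxb9 lie left of 0 in control U while Hoxb5, Hoxb6 and Hoxb8 lie above 0 in LE, and Hoxa11 is farthest right in both genotypes.

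Few Hox genes were called for the loss of epithelial Esr1 in the epithelium, and Hoxb9 was the one called on both days. Of the 31 members tested, 25 had a positive difference at D0.5 (median 0.51) and 6 at D3.5 (median −0.50). The median over all genes was −0.01 on both days. On D0.5, 2 of the 31 members tested in LE rose with the knockout (10.9% of all genes) and 0 fell (12.6%). On D3.5, 1 rose (7.79%) and 0 fell (5.70%).

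Hoxb9, which patterns the rib cage and acts in the mammary gland, held 1.39, 2.37, 1.68, 2.53, 1.95, 3.23, 2.83, 5.77 and 2.12 TPM in the 9 control LE libraries at D0.5. The 7 knockout libraries held 8.91, 8.29, 5.77, 5.41, 9.11, 6.62 and 5.56 TPM. Control library 8, at 5.77 TPM, was the only control within the range of the knockouts. The difference was 1.33 ± 0.29 (adjusted p = 0.00109).

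At D3.5 the 4 control libraries held 2.28, 2.26, 4.63 and 1.15 TPM of Hoxb9 and the 6 knockout libraries 6, 8.98, 9.81, 16.4, 21.7 and 16.7 TPM. The groups did not overlap, and the last 3 knockout values belong to mice 35, 36 and 37. The difference was 1.97 ± 0.40 (adjusted p = 0.00116), and 1.37 without those 3 libraries (0.0436). The call held without any 1 library on either day. Markers of uterine glands moved with Hoxb9 on both days: all 3 tested of a list of 5 (Foxa2, Cxcl15 and Spink1) rose with the knockout in LE. Their summed level over the list was 0.424 to 13.1 TPM in control and 19.2 to 67.9 TPM in knockout at D0.5, and 1.57 to 13.7 and 65.4 to 202 TPM at D3.5, with no overlap on either day. Prss28 and Prss29, gland proteases of the same list, were at 0 in every D3.5 knockout and every D0.5 control LE library. Prss28 was also at 0 in every D3.5 control LE library. Of 10 epithelial markers, 5 fell with the knockout at D0.5, and at D3.5 2 rose and 1 fell. All 4 neutrophil markers rose with the knockout at D0.5, with summed levels of 2.7 to 1291 TPM in control and 2890 to 9571 TPM in knockout. At D3.5 none of the 4 was called, at 0 to 3.32 and 2.77 to 35.1 TPM. Of 6 leukocyte markers, 3 rose and 1 fell at D0.5, and 0 stromal markers were called on either day. Of 5 markers of cervix, vagina or oviduct 0 were called at D3.5, where their sums were 102 to 284 TPM in control and 251 to 586 TPM in knockout. The part of these shifts in the Hoxb9 level was not tested. The difference between the 2 knockout effects was 0.64 and did not pass (adjusted p = 0.398). In U at D0.5 Hoxb9 stood at 2.17 to 3.13 TPM in the 6 controls and 4.59, 3.6, 3.87 and 3.78 TPM in the 4 knockouts, which do not overlap, at 0.57 ± 0.17 and an adjusted p of 0.0627. At D3.5 U held 3.24 to 5.94 TPM in control and 3.18 to 6.28 TPM in knockout.

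Hoxb2, a hindbrain segment gene in the embryo, was the other member called at D0.5, at 0.54 ± 0.18 (adjusted p = 0.0344). Control LE held 18.4, 24.7 and 31.4 TPM and knockout LE 21.3, 37.7 and 54.7 TPM, so the groups overlapped. The call was lost without LE control 1, 2, 3 or 5 or knockout 21, 26 or 27, with values of 0.39 to 0.65 over all settings tried. Without control 2, 6 members were called at D0.5: Hoxb9, with Hoxa3, Hoxa5, Hoxa9, Hoxb7 and Hoxc10 added. Hoxa6, named after its values were seen, varied from 0.212 to 7.62 TPM among knockout and 0 to 2.55 TPM among control libraries at D0.5 and was not called on either day (adjusted p = 0.252 and 0.21).

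**Figure D5:**
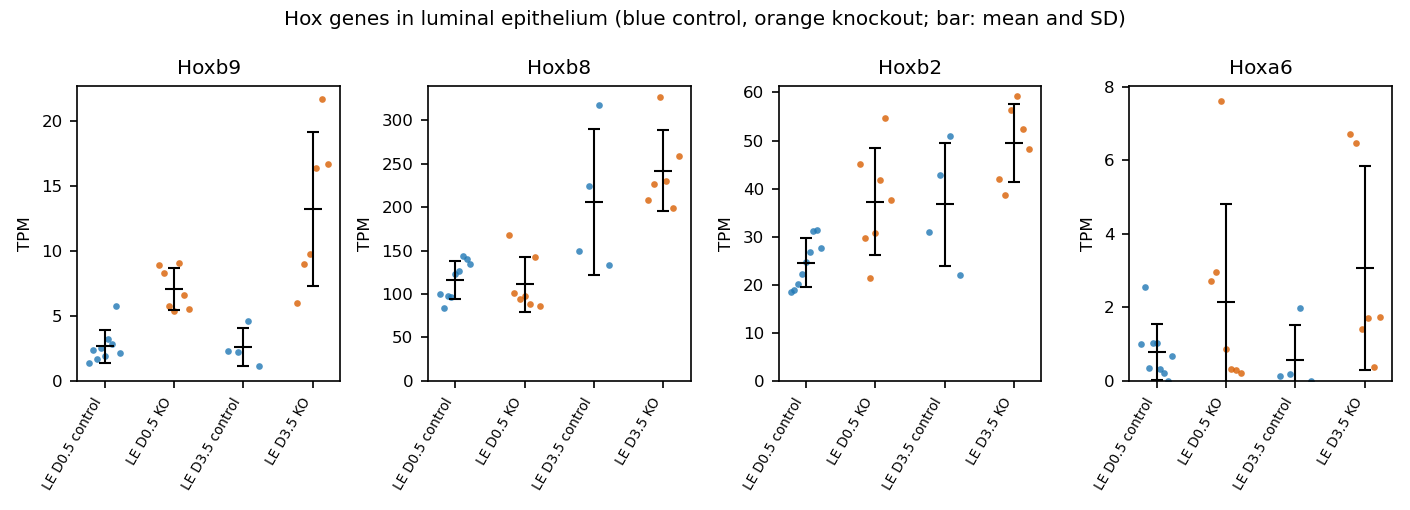
Level in TPM (linear axes from 0) of Hoxb9, Hoxb8, Hoxb2 and Hoxa6 in each LE library by day and genotype; points are libraries, blue for control and orange for knockout, with the mean and SD as bars. Knockout Hoxb9 lies at 5.41 to 9.11 TPM at D0.5 and 6 to 21.7 TPM at D3.5 against 1.39 to 5.77 and 1.15 to 4.63 TPM in control, while Hoxb8 overlaps between genotypes on both days.

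Hoxa10 and Hoxa11 showed no difference by genotype that passed the test in LE. Hoxa10 differed by 0.60 at D0.5 (95% interval −0.64 to 1.85) and −0.59 at D3.5 (−2.15 to 0.98), and Hoxa11 by −0.08 (−1.32 to 1.16) and −1.13 (−2.64 to 0.39). Both genes were low and uneven in LE, and the intervals are wide.

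In U and DU the intervals were narrower. In U, Hoxa10 differed by 0.19 (−0.33 to 0.72) at D0.5 and 0.02 (−0.49 to 0.53) at D3.5, and Hoxa11 by 0.16 (−0.30 to 0.62) and 0.00 (−0.45 to 0.45). The D3.5 values include the library labelled knockout 33. In DU, Hoxa10 differed by −0.30 (−0.62 to 0.03) and 0.06 (−0.28 to 0.40), and Hoxa11 by 0.07 (−0.38 to 0.52) and −0.02 (−0.50 to 0.46).

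Of 32 members tested in U, 0 were called by genotype at D0.5, where 4.98% of all genes were, and 0 at D3.5, where 0.0185% were, also without the library labelled knockout 33. At an unadjusted p under 0.05 there were 3 and 0. DESeq2 called 1 at D0.5, Hoxb9, and 0 at D3.5. At D3.5 in DU 0 were called (0.574% of all genes, 1 member at an unadjusted p under 0.05, 0 by DESeq2).

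At D0.5 in DU, 2 members were lower in knockout (4.17% of all genes) and 0 higher (3.89%). Hoxb5 held 7.95, 8.83, 9.89 and 8.46 TPM in the 4 controls and 3.32, 2.65 and 4.78 TPM in the 3 knockouts, with no overlap and a difference of −1.16 ± 0.25 (adjusted p = 0.0141). Hoxb6 held 93.1, 99.6, 84.3 and 67.4 TPM against 49.3, 54.3 and 45.7 TPM, again with no overlap, at −0.67 ± 0.15 (0.0146). Without DU knockout 25, 0 were called (0.0557 for Hoxb5 and 0.0534 for Hoxb6), and Hoxb6 was also lost without knockout 27 (0.061). Epithelial markers stood at 2604 to 4624 TPM in these controls and 2437 to 2618 TPM in the knockouts, summed over the list, and 2 of 10 were called lower. All 4 neutrophil markers rose, with sums of 252 to 1432 TPM in control and 3742 to 9745 TPM in knockout. Of 7 smooth muscle markers 3 rose (3975 to 7437 and 6955 to 8426 TPM), as did 5 of 10 stromal markers. The part of these shifts in the difference was not tested.

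Whether the knockout effect changed with day was tested as an interaction. In LE, 1 member, Hoxc10, had a lower effect at D3.5 (6.99% of all genes lower, 9.52% higher), at −2.86 ± 0.94 with an adjusted p of 0.0365. Hoxc10 stood at 0.24 to 1.54 TPM in knockout and 0.0274 to 0.945 TPM in control at D0.5, and at 0.406 to 1.71 and 0.736 to 6.32 TPM at D3.5, where 6.32 is control library 14. Without that library the call was lost (0.247), as it was without knockout libraries 35, 36 and 37 (0.118). It was also lost when LE control 5 or 6, or knockout 22, 23, 25, 32, 34, 36 or 37, was left out alone. In U and DU 0 members were called (1.43 and 1.88% of all genes), with 3 and 6 at an unadjusted p under 0.05. DESeq2 called 0 in U and 1 in DU, Hoxb6.

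Digestion itself was tested as DU against U. Without a block, 0 of 32 members and 0 of all 16782 genes were called (0% of all genes), with 8 members and 4055 genes at an unadjusted p under 0.05. DESeq2 called 0 members and 157 genes. With the mouse as a block, 10 members were called, 2 higher and 8 lower in DU. Over all genes 7082 were called in that fit, so such calls were not particular to the Hox genes.

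Hoxc11, a gene of the lower body and hindlimb, had the smallest p. It was 1.41 ± 0.32 higher in DU (adjusted p = 0.139) and 1.34 with the block (0.00274). In U it stood at 0.155 to 2.57 TPM in control at D0.5, and at 0.289, 0.294, 0.233, 1.02 and 0.53 TPM in control at D3.5. The digested pieces held 1.72, 2.25, 4.07 and 2.9 TPM and 1.39, 2.26 and 1.48 TPM. The knockout libraries stood at 0.756 to 1.41 TPM in U and 2.08 to 4.13 TPM in DU, without overlap. The Hoxa10 and Hoxa11 means differed little: 0.05 (−0.19 to 0.30) and −0.07 (−0.32 to 0.17).

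The RNA of the partners that Hox factors bind DNA with was measured beside the members. Of 9 cofactor genes of the PBX, MEIS and PKNOX families, 7 were lower in LE than in U (34.7% of all genes) and 0 higher (31.0%), with a median of −1.08 against −0.03 over all genes. Meis2 held 35.5 CPM in LE and 138 CPM in U (−2.04 ± 0.14, adjusted p = 4.37e-17). From D0.5 to D3.5, 3 rose (16.2% of all genes) and 0 fell (18.0%) in control U, among them Pknox2 (1.57 ± 0.15, adjusted p = 9.81e-08) and Pknox1 (0.67 ± 0.12, 0.000202).

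In control LE, Pknox2 went from 4.57 to 52.3 CPM (3.53 ± 0.53, adjusted p = 5.18e-06) and Pbx2 rose by 0.67 ± 0.14 (0.00038). With the knockout, Meis2 was higher in LE on both days, by 1.19 ± 0.26 at D0.5 (0.00128) and 1.05 ± 0.35 at D3.5 (0.0438), and its groups overlapped on both. It was the only cofactor called at D0.5, and at D3.5 Pbx2 was lower by −0.53 ± 0.16 (0.0211).

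Among 16 Polycomb and trithorax genes, 8 were higher (31.0% of all genes) and 1 lower (34.7%) in LE than in U, among them Kdm6a (0.83 ± 0.10, adjusted p = 1e-09). In control LE, 5 rose with day (21.2% of all genes) and 0 fell (22.8%), among them Bmi1, a Polycomb subunit gene, from 27.9 to 56.5 CPM (1.02 ± 0.11, 4.67e-08), and Cbx7, from 16.3 to 35.6 CPM (1.12 ± 0.18, 8.85e-06). In control U 2 rose (16.2%) and 1 fell (18.0%). With the knockout, LE at D0.5 had 2 that rose (10.9%) and 1 that fell (12.6%), led by Cbx7 (0.99 ± 0.15, 2.8e-05). At D3.5 it had 1 that rose (7.79%), Ezh2 (1.09 ± 0.35, 0.0361). In U at D0.5 1 was higher, and in DU at D0.5 1, and at D3.5 0 in both.

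The list of genes known upstream or downstream of HOXA10 had 6 of 10 members tested. In control U 3 rose with day (16.2% of all genes) and 1 fell (18.0%): Pgr, the progesterone receptor (1.48 ± 0.31, adjusted p = 0.000812), Fkbp4, its chaperone (0.68 ± 0.16, 0.00226), and Itgb3, an integrin subunit, with Emx2 lower (−0.46 ± 0.13, 0.00945). In control LE Pgr rose from 14.1 to 153 CPM (3.44 ± 0.30, 7.5e-10) and Klf9 from 18.4 to 47.1 CPM (1.35 ± 0.22, 1.88e-05). By genotype, 1 of the list was called higher in LE at D0.5 (Klf9) and 1 lower (Esr1, the deleted gene), and Esr1 alone was called at D3.5.

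Some values carry limits of counting. Under the GENCODE vM21 annotation, Hoxd3 and Hoxd4 share 388 exonic bases and Hoxc5 and Hoxc10 share 166, so that reads could be split between them. The other 35 members share none with another member. Whether the counting used strand is not stated in these sources, and reads of antisense transcripts such as Hoxa11os cannot be told apart from those of a member. Of 17 non-coding and flanking genes listed beside the clusters, 2 were in the tables and 0 passed the filter.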

How the data were processed

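RNA was measured by sequencing in 59 libraries of luminal epithelium, whole uterus and digested uterus, prepared with the NEBNext Ultra kit per the labels' protocols. The authors deposited estimated counts per gene and TPM values per gene (shares of all transcripts, scaled for gene length), made with kallisto 0.46.1 on build GRCm39 per the submitters' processing notes. How transcripts were summed to genes was not stated there. Extraction was done 1 tissue at a time per the labels' protocols, and differences between tissues cannot be told apart from differences between extractions.

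Estimated counts were rounded and fitted per tissue, and per pair of tissues, with edgeR 4.0.16 in R 4.3.3 (TMM scaling, filterByExpr with minimum count 10 and minimum total 15, quasi-likelihood F test). Every fit covered all genes, and p-values were adjusted over all of them by Benjamini-Hochberg, with calls at an adjusted p under 0.05. Intervals of 95% come from the SE and the t distribution. Alternatives were DESeq2 1.42.0, limma 3.58.1 on log2(TPM + 0.1) with a minimum mean TPM of 0.1, median-of-ratios scaling, no filter, the mouse as a block, and each library left out in turn. The edgeR fit was tested on simulated data with known fold changes. Libraries of a group came from separate mice, and no pair of libraries agreed within sampling noise (lowest chi-square per degree of freedom 9.76 over 134 pairs). Per-sample columns of no labelled sample numbered 0.

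Same-numbered libraries of different tissues came from the same mouse per the labels. Their deviations from the group means correlated at a median of 0.349 for LE and U (17 mice, lowest −0.239), 0.163 for LE and DU (13 mice, lowest −0.142) and 0.429 for DU and U (13 mice, lowest 0.154).

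The members, the other gene lists and the tests were chosen with earlier results of these data known. Hoxa9, Hoxa10, Hoxa11, Hoxa13 and the most abundant member of clusters b, c and d in U (Hoxb6, Hoxc6, Hoxd10) were followed throughout. In each comparison up to 4 called members per direction with the smallest adjusted p were named besides, or, with no call, the member with the smallest p, and up to 2 called members of each other list. Levels between genes were compared in TPM only. Other members named, among them Hoxc8, Hoxa6 and Hoxb2 to Hoxb8 in lists of calls, were named after their values were seen. Some called genes of the other lists are not reported here.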

Additional observations from a re-analysis of the deposited data

Results flagged for a closer look

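Among the 7 members followed throughout, 9 of 62 groups of 4 to 9 libraries held a library far from the rest. Chance would give about 1 in 20 if the groups were independent. They were not, since the same libraries enter for each member, so the 2 rates cannot be compared. LE control 2 at D0.5 stood high in Hoxa9 (2.3 TPM against 0.038 to 0.953 in the other 8), Hoxa10 (6.24 against 0.146 to 1.59) and Hoxd10 (3.59 against 0.203 to 1.9). LE control 14 at D3.5 stood high in Hoxa11 (15.7 TPM against 3.67 to 4.77) and Hoxc6 (31.3 against 6.04 to 9.85). These libraries also held the highest stromal marker sums of their groups, 2514 and 2256 TPM, and the part of that RNA was not tested. U control 5 at D0.5 was high in Hoxb6 (100 TPM against 69.3 to 78.3) and was the only library of its group with a Hoxa13 level above 0 (0.0305 TPM). With the others at 0, any level above 0 would be flagged. DU control 9 at D0.5 was high in Hoxa10 (98.9 TPM against 68.1 to 70.7), and LE knockout 35 at D3.5 in Hoxa13 (0.773 TPM against 0 to 0.246).

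Effects that differed between groups by a test of the difference were these. The knockout effect on Hoxc10 in LE was lower at D3.5 than at D0.5, by −2.86 on the log2 scale. This call was lost without LE control 14, and also without each of several other LE libraries. The change from D0.5 to D3.5 in control mice was higher in LE than in U for Hoxb2 (1.03), Hoxb3 (0.71), Hoxb4 (1.28), Hoxb5 (1.98), Hoxb6 (1.80), Hoxb7 (1.20), Hoxb8 (1.84), Hoxc6 (2.09), Hoxc10 (3.02) and Hoxc11 (3.72). In knockout mice it was higher in LE for Hoxb3 (0.78), Hoxb4 (0.94), Hoxb6 (1.05), Hoxb7 (0.96) and Hoxb8 (1.50). Hoxc11 was too low to test in LE alone, and the part of the fall of epithelial RNA in U was not tested.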

How the results depend on the processing

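The counts of called Hox members changed most for the knockout and for contrasts of low genes. On log2(TPM + 0.1) with limma, 4 were called for the knockout in LE at D3.5, 8 for day in knockout LE, 0 for the interaction in LE and 1 in DU against U. With no filter, 2 were called for the interaction in LE and 3 for the knockout day effect in LE minus U. DESeq2 called 1 for the knockout in U at D0.5 and 1 for the interaction in DU. Without LE knockouts 35, 36 and 37 the interaction in LE called 0. With the mouse as a block (pairing by mouse) 24 were called in LE against U, 23 in LE against DU and 10 in DU against U. Apart from DU against U above, the number of all genes called is not given for these settings or for the left-out libraries below. These counts therefore show how the calls changed and cannot be set against all genes. The causes were not tested.

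With each library left out in turn, the knockout called 1 to 6 members in LE at D0.5, 1 to 2 in LE at D3.5, 0 to 1 in U at D0.5 and 0 to 3 in DU at D0.5. Day called 12 to 19 in control LE, 3 to 5 in knockout LE, 13 to 16 in control U, 9 to 13 in knockout U, 13 to 16 in control DU and 9 to 13 in knockout DU. The interaction in LE called 0 to 3, and the day effect in LE minus U 7 to 15 in control and 2 to 5 in knockout. Tissue called 23 to 25 in LE against U, 20 to 22 in LE against DU and 0 to 1 in DU against U.

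Small knockout differences of Hoxa10 and Hoxa11 turned in sign. Hoxa11 in LE at D0.5 was 0.07 in TPM and −0.28 to 0.14 with a library left out, and Hoxa10 in LE at D3.5 was 0.05 without knockouts 35, 36 and 37. In U at D3.5 Hoxa10 was 0.00 with no filter and −0.09 to 0.10 with a library left out, and Hoxa11 −0.10 to 0.12. In DU Hoxa11 at D0.5 was −0.04 in TPM and −0.07 to 0.29 with a library left out, and at D3.5 −0.11 to 0.03. None of these passed the test. Members under about 1 TPM rest on few counts, and differences among them were often not detectable at this depth.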
